A study of Homo sapiens with 6 samples.

Results

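The nuclear genes of oxidative phosphorylation were taken as every probe set whose gene symbol begins with NDUF, SDHA, SDHB, SDHC, SDHD, UQCR, UQCC, ATP5, or COX and a digit. That rule found 102 genes with 1 probe set each, of 15674 named genes and 16965 probe sets on the array. By role they were 32 subunits of complex I, 3 of complex II, 8 of complex III, 15 of complex IV and 15 of complex V, with 26 assembly factors and 3 other members. Of 115 genes sorted into these roles, 101 were measured and 14 were not analysed here. Among those 14 was the succinate dehydrogenase subunit SDHB.

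The cells were MDA-MB-231, an established human breast cancer line of mesenchymal, triple-negative type. They carried hairpin shS100A10_1, hairpin shS100A10_5 or the control hairpin shNCT, and all 3 groups grew in RPMI medium with 10% serum, antibiotics and 2.5 µg/ml puromycin. Both S100A10 hairpins are named for S100A10, the gene of the light chain of the annexin A2 heterotetramer, and the labels do not say what sequence shNCT targets. Each group had 2 arrays of total RNA. The labels do not say whether a group was a clone or a pool, or whether its 2 arrays came from separate cultures, so p-values cover only the spread from array to array, possibly technical.

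Oxidative phosphorylation takes place in the inner mitochondrial membrane. Complex I oxidises NADH and complex II oxidises succinate, and both pass electrons through quinone to complex III, then through cytochrome c to complex IV, which reduces oxygen. The proton gradient built by complexes I, III and IV drives ATP synthesis at complex V. Most subunits are encoded in the nucleus, a few of the central ones in mitochondrial DNA, and assembly factors put the complexes together without remaining in them.

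S100A10 itself had intensities of 1969 and 1545 with shS100A10_1 and 13565 and 9461 with shS100A10_5, against 88860 and 92938 with shNCT. No hairpin array reached either control, and S100A10 was 52.1-fold lower with shS100A10_1 (limma, adjusted p = 1.71e-06) and 8.02-fold lower with shS100A10_5 (limma, adjusted p = 0.000442). The median log2 intensity of an array lay between 7.86 and 7.90 in all 6 arrays. No detection calls were given, so a low intensity could not be called absent. All 6 mesenchymal markers of the line (VIM, CAV1, AXL, CD44, ZEB1 and FN1) were measured, with mean log2 intensities from 9.39 to 16.50 in shNCT. Of 6 luminal and receptor markers, 3 were measured and had 6.93 (GATA3), 4.79 (FOXA1) and 3.78 (CDH1), beside a median of 7.88 over all probe sets. The receptor genes ESR1, PGR and ERBB2 were not analysed here, so receptor status was not checked. Of the leukocyte markers 4 of 5 were measured, of which PTPRC had 5.22 and CD3E 5.58 in shNCT but CD68, a lysosomal protein also found outside leukocytes, had 12.64.

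With shS100A10_5, the genes for the subunits of the respiratory complexes and ATP synthase lay mostly below the controls. The 26 assembly factors found by the name rule were split evenly. Relative to shNCT, the median log2 change was -0.36 over the 73 subunits, 58 of them negative, and -0.01 over the 26 assembly factors, 13 of them negative. Over all 102 members it was -0.21, beside 0.02 over all probe sets. Of the 102 members 71 had negative changes, beside 7929 of the 16965 probe sets. Past an adjusted p of 0.05 (limma, Benjamini-Hochberg over all probe sets), 2 members fell and 0 rose, while 3.18% of all probe sets passed in either direction. The 2 were NDUFAF3, an assembly factor of complex I, and UQCR11, a small subunit of complex III. At an unadjusted p under 0.05, 32 members (31.4%) were lower, beside 10.3% of all probe sets, and 5 members (4.90%) were higher, beside 10.7% of all probe sets. In 50 members both shS100A10_5 arrays lay below both controls, which was 49.0% of members and 23.8% of probe sets. Both lay above both controls in 15 members, 14.7% of members and 26.7% of probe sets. In whole-cell RNA, fewer cells of a kind and less RNA per cell cannot be told apart.

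With shS100A10_1, which left less S100A10 transcript than shS100A10_5, the members lay close to the controls. Their median log2 change was -0.03, with 48 positive and 54 negative, beside 0.01 over all probe sets. No member passed the adjusted threshold in limma (0 of 102, beside 0.189% of all probe sets). At an unadjusted p under 0.05, 3 members were lower (2.94%, beside 4.16% of probe sets) and 3 were higher (2.94%, beside 4.28% of probe sets). The lower ones were COX20, NDUFA13 and COX7B, and the higher ones were NDUFAF1, COX7A2L and NDUFV1-DT. Both shS100A10_1 arrays lay below both controls in 29 members (28.4%, beside 20.5% of probe sets) and above them in 24 (23.5%, beside 21.9%).

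**Figure D1:**
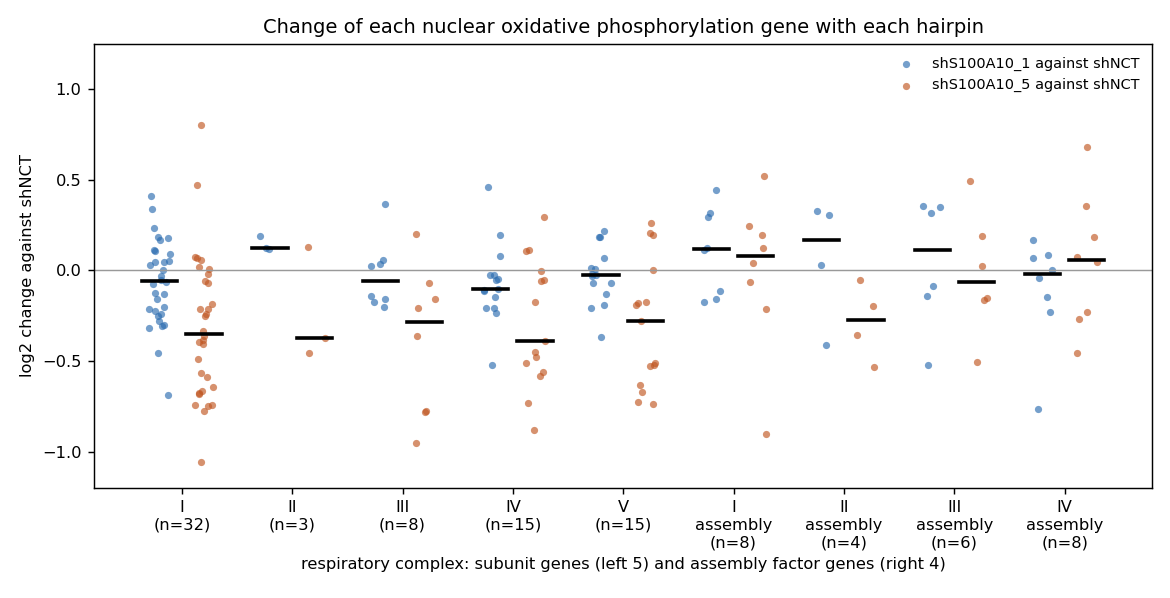
Log2 change of each member against shNCT (vertical axis), with shS100A10_5 and shS100A10_1 as separate points, by complex and role (horizontal axis), with black bars at the medians. With shS100A10_5 the medians of the subunit genes of complexes I to V lie between -0.39 and -0.28, and with shS100A10_1 between -0.10 and 0.12.

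Set directly against each other, shS100A10_5 was below shS100A10_1 in 77 of the 102 members, beside 8136 of the 16965 probe sets. The median log2 difference was -0.18 over the members, beside 0.02 over all probe sets. In limma 1 member was lower with shS100A10_5 (NDUFV1) and 1 was higher (COX20), and 2.91% of all probe sets passed in either direction. At an unadjusted p under 0.05, 24 members (23.5%) were lower, beside 9.8% of probe sets, and 3 (2.94%) were higher, beside 10.1% of probe sets. Without shS100A10_5 replicate 1 the test between the hairpins called 8 members, and without any 1 of the other 5 arrays it called 0. The share of all probe sets called in those fits was not counted. The comparisons of the hairpins with shNCT share the control arrays, so their values are given side by side and not as independent evidence.

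The 2 arrays of shS100A10_5 differed in how far the members lay below the controls. Over the 73 subunits the median log2 value relative to the shNCT mean was -0.14 in replicate 1 and -0.50 in replicate 2 of shS100A10_5, and 0.03 and -0.13 in the shS100A10_1 arrays. Of the 73 subunits, 49 were below the shNCT mean in the first shS100A10_5 array and 63 in the second. In the shS100A10_1 arrays 33 were below it in replicate 1 and 53 in replicate 2. Over the assembly factors the same medians were 0.03 and -0.02 for shS100A10_5. Without replicate 2 of shS100A10_5 the median change over all members was -0.09, and without replicate 1 it was -0.33. In fits with an array left out, the share of all probe sets called was not counted. The number of members called against shNCT was 0 without shS100A10_5 replicate 2, shNCT replicate 1 or shNCT replicate 2, and 15 without shS100A10_5 replicate 1.

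**Figure D2:**
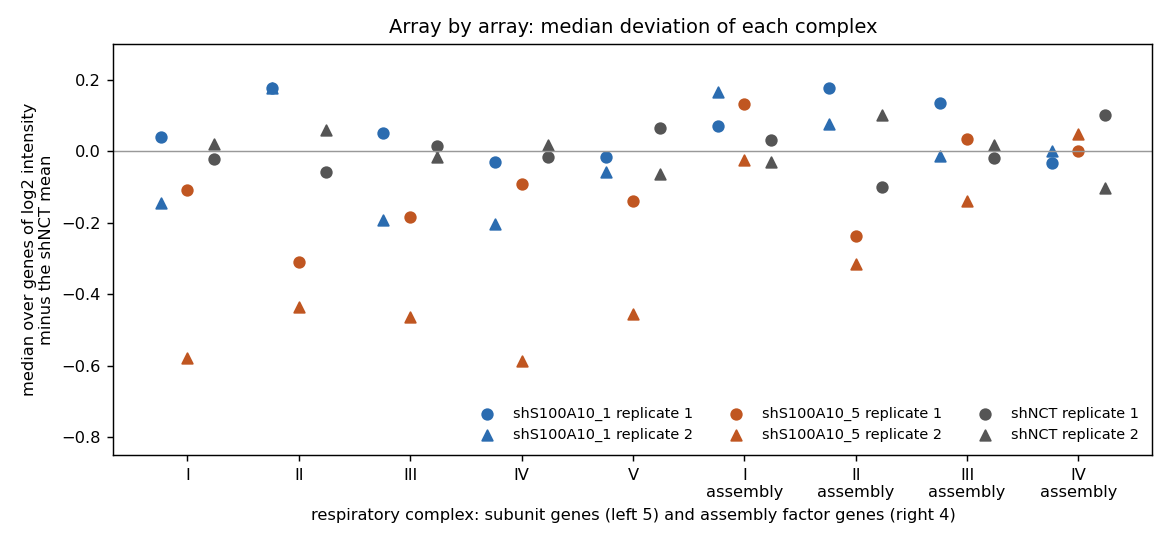
Median log2 intensity relative to the shNCT mean (vertical axis) over the members of each complex, for each of the 6 arrays, grouped by hairpin. For the subunits of all 5 complexes both shS100A10_5 arrays lie below 0, from -0.09 to -0.31 in replicate 1 and from -0.44 to -0.59 in replicate 2.

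The promoters of the 4 members past the adjusted threshold in a comparison are shown with that of SDHD, a complex II subunit with a log2 change of 0.13, chosen after its sequence was seen because it holds 2 of the 3 motifs searched. The sequences are from RefSeq, build GRCh38.p14, as the 150 bases before the gene's start, written 5′ to 3′ along the gene's strand. They lie at chr3:49020302-49020451 (plus strand) for NDUFAF3, chr19:1605463-1605612 (minus) for UQCR11, chr11:67606786-67606935 (plus) for NDUFV1, chr1:244835326-244835475 (plus) for COX20 and chr11:112086723-112086872 (plus) for SDHD. Capitals mark matches on either strand to any of 3 motifs, GCGCATGC for nuclear respiratory factor 1 (NRF1), CCGGAAG for ETS-family factors such as GABP and AANATGGC for YY1.
NDUFAF3: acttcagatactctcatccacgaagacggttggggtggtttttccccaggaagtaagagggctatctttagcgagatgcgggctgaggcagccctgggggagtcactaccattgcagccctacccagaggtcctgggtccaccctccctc
UQCR11: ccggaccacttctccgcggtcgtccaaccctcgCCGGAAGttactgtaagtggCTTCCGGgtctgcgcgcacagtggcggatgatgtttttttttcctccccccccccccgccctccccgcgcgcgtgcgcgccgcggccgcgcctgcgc
NDUFV1: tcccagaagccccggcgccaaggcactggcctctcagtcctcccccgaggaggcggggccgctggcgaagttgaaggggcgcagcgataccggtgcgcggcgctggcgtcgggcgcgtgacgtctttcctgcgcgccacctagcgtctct
COX20: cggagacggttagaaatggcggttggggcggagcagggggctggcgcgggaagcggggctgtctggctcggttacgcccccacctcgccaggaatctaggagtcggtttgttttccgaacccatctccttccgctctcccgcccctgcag
SDHD: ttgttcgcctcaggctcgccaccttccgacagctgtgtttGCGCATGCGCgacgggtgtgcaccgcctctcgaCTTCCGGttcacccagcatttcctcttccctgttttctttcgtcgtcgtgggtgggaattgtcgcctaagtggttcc
The UQCR11 stretch holds the ETS motif on each strand, the SDHD stretch holds the NRF1 motif on both strands, overlapping, and the ETS motif, and the other stretches hold none of the 3.

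NRF1, GABP and YY1 are known regulators of many respiratory chain genes, so the same 3 motifs were counted from 250 bases before to 50 bases after the start, on both strands, with matches that overlap one another kept. A promoter was found for 85 of the 102 members. The NRF1 motif was in 18 of them (21.2%), against 4.48% of 12728 named array genes and 3.27% of all 27305 promoters in the table. The ETS motif was in 23 (27.1%), against 15.3% and 10.7%, and the YY1 motif was in 21 (24.7%), against 8.36% and 6.82%. Among the 27 subunits with a promoter that were lower with shS100A10_5 at an unadjusted p under 0.05, NRF1 was in 6, ETS in 10 and YY1 in 9. Among the 33 other subunits the counts were 6, 7 and 8. The stricter NRF1 form, with overlapping matches on both strands, was in 7 of the 85 member promoters (8.24%, against 1.91% and 1.36%), in 0 of the 27 lower subunits and in 4 of the 33 others. These are matches of letters and were given no test.

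NDUFAF3, which acts early in building the quinone-reducing arm of complex I, had intensities of 15402 and 10710 with shS100A10_5, against 24403 and 23606 with shNCT. Both shS100A10_5 arrays were below both controls, and the mean log2 intensity was 13.65 ± 0.37 with shS100A10_5 and 14.55 ± 0.03 with shNCT (SD, n = 2 each). It fell by 0.90 on the log2 scale (SE 0.20, 1.87-fold lower; limma, adjusted p = 0.0434). With shS100A10_1 it had 21768 and 21287, a log2 change of -0.16. Without shS100A10_5 replicate 2 its change was -0.64 (limma, adjusted p = 0.192), and without shNCT replicate 1 or 2 the adjusted p was 0.169 or 0.209. Median centring of the arrays gave an adjusted p of 0.0512.

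UQCR11 had intensities of 3559 and 2425 with shS100A10_5, against 5038 and 6430 with shNCT. Again both shS100A10_5 arrays were below both controls, with mean log2 values of 11.52 ± 0.39 and 12.47 ± 0.25 (SD, n = 2 each). It fell by 0.95 on the log2 scale (SE 0.22, 1.94-fold lower; limma, adjusted p = 0.0486). The shS100A10_1 arrays had 5195 and 4695, a change of -0.20, and overlapped the controls. Without shS100A10_5 replicate 2 the change was -0.68 (limma, adjusted p = 0.221), and without shNCT replicate 1 or 2 the adjusted p was 0.116 or 0.288. Quantile normalization gave an adjusted p of 0.0614.

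**Figure D3:**
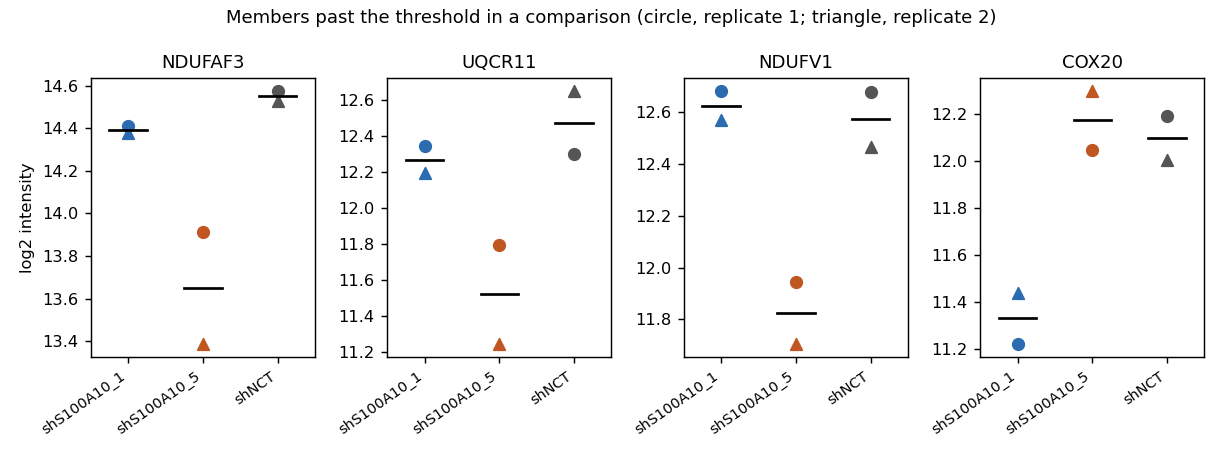
Log2 intensity (vertical axes, a separate scale in each panel) of NDUFAF3, UQCR11, NDUFV1 and COX20 in each array, with shS100A10_1, shS100A10_5 and shNCT from left to right. Points are arrays and lines are means of 2; the shS100A10_5 points are lowest for NDUFAF3, UQCR11 and NDUFV1, and the shS100A10_1 points are lowest for COX20.

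Complex I subunits had a median log2 change of -0.35 with shS100A10_5, with 25 of 32 negative, and -0.06 with shS100A10_1. Of the 32, 12 (37.5%, beside 10.3% of all probe sets) were lower with shS100A10_5 at an unadjusted p under 0.05. At that p 2 (6.25%, beside 10.7%) were higher, and 0 passed the adjusted threshold against shNCT in limma. All 4 nuclear core subunits that were measured had negative changes with shS100A10_5. In replicate 1 of that hairpin 3 of the 4 were below the shNCT mean, and in replicate 2 all 4 were. NDUFV1, which binds NADH and the flavin, had 3940 and 3339 with shS100A10_5, 6573 and 6083 with shS100A10_1, and 6552 and 5664 with shNCT. The shS100A10_5 arrays were below the other 4. NDUFV1 passed the test between the hairpins, with shS100A10_5 minus shS100A10_1 at -0.80 on the log2 scale (SE 0.18; limma, adjusted p = 0.0453), with mean log2 values of 11.82 ± 0.17 and 12.63 ± 0.08 (SD, n = 2 each). Against shNCT its change was -0.75 (limma, adjusted p = 0.0532) and missed the threshold. Without shS100A10_5 replicate 2 the difference between the hairpins was -0.68 (limma, adjusted p = 0.182). The adjusted p was 0.224 or 0.124 without shS100A10_1 replicate 1 or 2, 0.0727 without either shNCT array and 0.0523 with median centring.

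NDUFS7, the iron-sulphur subunit nearest the quinone, had the lowest change of any member with shS100A10_5. Its intensities were 53.7 and 45.8 with shS100A10_5, against 75.5 and 141 with shNCT, a log2 change of -1.06 (limma, adjusted p = 0.0659) that did not pass. The shNCT arrays of NDUFS7 lay further apart than those of shS100A10_5. Without shNCT replicate 1 or 2 its change was -1.51 or -0.61. These NDUFS7 intensities were dim, below the median intensity of any array (232 to 238). NDUFS3, another core subunit, had 3064 and 2629 with shS100A10_5, against 3234 and 3350 with shNCT, a change of -0.21. NDUFV2, an iron-sulphur subunit, had 4921 and 3321 against 4497 and 4889, also -0.21, and overlapped the controls. Without shS100A10_5 replicate 2 the changes were -0.10 for NDUFS3 and 0.070 for NDUFV2.

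Among the 28 accessory subunits of complex I the median change was -0.35 with shS100A10_5 and -0.07 with shS100A10_1. NDUFA10, an accessory subunit, had 1678 and 1483 with shS100A10_5, against 2924 and 2384 with shNCT. Its change was -0.74 (limma, adjusted p = 0.0545). NDUFA13, also called GRIM-19, was low with both hairpins, at 445 and 327 with shS100A10_1 and 484 and 343 with shS100A10_5, against 587 and 640 with shNCT. Its changes were -0.69 (limma, adjusted p = 0.392) and -0.59 (limma, adjusted p = 0.164), and all 4 hairpin arrays were below both controls. NDUFA5 lay on the other side, with 1397 and 2220 with shS100A10_5, against 1063 and 959 with shNCT. That change of 0.80 (limma, adjusted p = 0.0841) was the highest of any member and did not pass.

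Complex II, succinate dehydrogenase, also serves the citric acid cycle. Of its subunits, SDHA (the flavoprotein) had 2785 and 2621 with shS100A10_5, against 3906 and 3515 with shNCT. SDHC, a membrane anchor, had 2337 and 2143 against 2707 and 3101. In both genes the shS100A10_5 arrays were below the controls, with log2 changes of -0.46 (limma, adjusted p = 0.159) and -0.37 (limma, adjusted p = 0.253). SDHD, the other anchor, had 5430 and 4862 with shS100A10_5, against 4512 and 4893 with shNCT, and overlapped the controls. With shS100A10_1 the 3 subunits had changes from 0.12 to 0.19, so the median was 0.12 with shS100A10_1 and -0.37 with shS100A10_5.

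Complex III subunits had a median change of -0.28 with shS100A10_5, with 7 of 8 negative, and -0.06 with shS100A10_1. UQCR11, UQCRC1 and UQCRQ had a negative change with shS100A10_5 at an unadjusted p under 0.05. These were 37.5% of the 8 subunits, beside 10.3% of all probe sets. UQCRC1, a core protein of the matrix side, had 4891 and 3482 with shS100A10_5, against 6493 and 7711 with shNCT. Its change was -0.78 (limma, adjusted p = 0.068), with no overlap. UQCRB, the quinone-binding protein, was the member of this complex with a positive value, 0.20, at 14958 and 13848 with shS100A10_5, against 13897 and 11301 with shNCT.

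Complex IV subunits had a median change of -0.39 with shS100A10_5, with 12 of 15 negative, and -0.10 with shS100A10_1. With shS100A10_5, 6 of them (40%, beside 10.3% of all probe sets) had a negative change with an unadjusted p under 0.05. These 6 were all forms used in most tissues. COX7A2 had 1758 and 1115 with shS100A10_5, against 2255 and 2938 with shNCT, a change of -0.88 (limma, adjusted p = 0.0738). COX7B had 8123 and 5483 against 10480 and 11698, a change of -0.73 (limma, adjusted p = 0.0924), and COX4I1 had 1783 and 1279 against 2064 and 2483, a change of -0.58 (limma, adjusted p = 0.14). In each of these 3 the shS100A10_5 arrays were below both controls. COX6A1 and COX8A had changes of -0.48 and -0.51.

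The tissue-restricted forms of the same subunits had dim probe sets. COX4I2, the lung form, had 27.9 and 19.1 with shS100A10_5, against 24.5 and 23.6 with shNCT, and overlapped the controls. COX6A2 and COX7A1, the muscle forms, had changes of 0.11 and -0.17, COX6B2, a testis form, had -0.05, and COX8C had 0.30. COX7A2L, which helps complexes III and IV associate, had 16324 and 15766 with shS100A10_1, against 12465 and 10906 with shNCT. That change of 0.46 (limma, adjusted p = 0.46) did not pass, and with shS100A10_5 it was 0.11.

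Complex V subunits had a median change of -0.28 with shS100A10_5, with 12 of 15 negative, and -0.03 with shS100A10_1. For 7 of them (46.7%, beside 10.3% of all probe sets) the change with shS100A10_5 was negative with an unadjusted p under 0.05. In the catalytic head, ATP5F1A had 12980 and 10089 with shS100A10_5, against 17376 and 15354 with shNCT, a change of -0.51 (limma, adjusted p = 0.149). ATP5F1B, which holds the catalytic sites, had 76431 and 64419 against 79730 and 78566, a change of -0.17 (limma, adjusted p = 0.615). ATP5F1D, in the central stalk, had 4538 and 3707 against 6662 and 6902. For all 3 the shS100A10_5 arrays were below both controls, and the change of ATP5F1D was -0.73 (limma, adjusted p = 0.068). ATP5PO, in the peripheral stalk, had 8957 and 5863 against 12589 and 11556, a change of -0.74 (limma, adjusted p = 0.0886).

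The genes ATP5MC1, ATP5MC2 and ATP5MC3 encode the same mature ring subunit with different import sequences. ATP5MC1 had 32013 and 21654 with shS100A10_5, against 40402 and 41081 with shNCT, and ATP5MC2 had 19371 and 11691 against 21717 and 21600. ATP5MC3 had 4565 and 3562 against 6136 and 5455. Their changes with shS100A10_5 were -0.63, -0.53 and -0.52, and with shS100A10_1 0.01, -0.13 and -0.19. Without shS100A10_5 replicate 2 they were -0.35, -0.16 and -0.34 with that hairpin. In each the shS100A10_5 arrays lay below both controls, and none passed in limma (adjusted p from 0.12 to 0.225). ATP5IF1, the inhibitor of ATP synthase, had 9865 and 10806 with shS100A10_5, against 10517 and 9519 with shNCT, a change of 0.05. ATP5MGL, a copy of ATP5MG, and NDUFV1-DT, a transcript divergent from NDUFV1, were the other members outside the complexes, with changes of 0.14 and 0.35.

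Assembly factors had median changes with shS100A10_5 of 0.08 for complex I, -0.28 for complex II, -0.06 for complex III and 0.06 for complex IV. With shS100A10_1 the medians were 0.12, 0.17, 0.12 and -0.02. Of the 26, 3 were lower with shS100A10_5 at an unadjusted p under 0.05 (NDUFAF3, COX18 and SDHAF1) and 3 were higher (NDUFAF1, UQCC4 and COX10). Each count was 11.5% of the factors, near the 10.3% and 10.7% of all probe sets. COX20, a chaperone of subunit COX2, had 4228 and 5028 with shS100A10_5, 2388 and 2775 with shS100A10_1, and 4671 and 4105 with shNCT. The shS100A10_1 arrays were below the other 4. COX20 passed the test between the hairpins, with shS100A10_5 minus shS100A10_1 at 0.84 on the log2 scale (SE 0.18; limma, adjusted p = 0.0418), with mean log2 values of 12.17 ± 0.18 and 11.33 ± 0.15 (SD, n = 2 each). Against shNCT its change with shS100A10_1 was -0.77 (limma, adjusted p = 0.208). The difference between the hairpins had an adjusted p of 0.181 in limma without shS100A10_5 replicate 2, 0.231 or 0.0988 without shS100A10_1 replicate 1 or 2, and 0.0685 without either shNCT array. Array weights gave 0.0695.

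COX10 and COX18 lay on opposite sides of the controls with shS100A10_5. COX10, which makes haem O for complex IV, had 796 and 1333 with shS100A10_5, against 772 and 535 with shNCT, a change of 0.68 (limma, adjusted p = 0.17). COX18, which inserts subunit COX2 into the membrane, had 961 and 950 with shS100A10_5, against 1310 and 1315 with shNCT, a change of -0.46 (limma, adjusted p = 0.143). In neither gene did the groups overlap. NDUFAF1, an assembly factor of the membrane arm of complex I, was high with both hairpins, at 492 and 622 with shS100A10_1 and 593 and 577 with shS100A10_5, against 461 and 359 with shNCT. Its changes were 0.44 (limma, adjusted p = 0.583) and 0.52 (limma, adjusted p = 0.163).

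Members tended to be short genes, with a median span of 10672 bp against 26623 bp over all named genes, and in replicate 2 of shS100A10_5 the deviation from the mean of the 6 arrays was more positive for longer genes (Spearman 0.25 across 15674 genes, against -0.21 to 0.04 in the other arrays). Across genes, the shS100A10_5 change correlated with span by 0.20 over the 102 members and 0.17 over all named genes. For shS100A10_1 these values were 0.28 and -0.0046, and for the difference between the hairpins 0.03 and 0.19. Over the members alone, the deviation of an array correlated with span by 0.16 in shS100A10_5 replicate 2 and 0.36 in shS100A10_1 replicate 2. Genes share arrays and are not independent, so these have no p. In members of 276 to 5247 bp the median change with shS100A10_5 was -0.25, against -0.04 for all named genes of that length. In the next 2 groups it was -0.28 against -0.05 and -0.36 against -0.02. In members of 18283 to 222698 bp it was -0.06, against 0.07. After a trend with span was removed from the arrays, the 2 reported members had log2 changes of -0.83 (NDUFAF3; limma, adjusted p = 0.0505) and -0.89 (UQCR11; limma, adjusted p = 0.0608), and neither passed. The 1 member called was another, NDUFA10, at -0.84 (limma, adjusted p = 0.0495). Under the settings run that kept all arrays, the median change with shS100A10_5 over all members stayed between -0.22 and -0.18. Members were also bright, with a median of mean log2 intensity of 11.67, against 7.88 over all probe sets. It was 12.31 for the subunits and 9.54 for the assembly factors, whose median gene spans were 9936 bp and 15594 bp. The shS100A10_5 change correlated with brightness (Spearman) by -0.15 over the members and -0.02 over all probe sets. The part of gene span or brightness in the lower member values was not tested further.

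**Figure D4:**
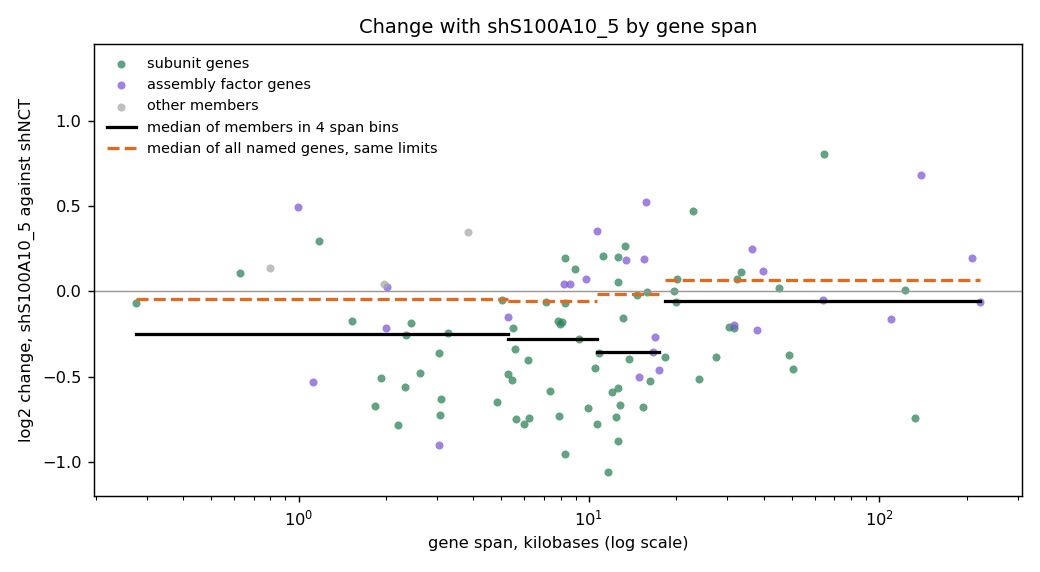
Log2 change with shS100A10_5 against shNCT (vertical axis) by gene span in kilobases (horizontal, log scale), for the 102 members, with medians of 4 groups of members and of all named genes within the same limits. The member medians are -0.25, -0.28, -0.36 and -0.06 from the shortest group to the longest, against -0.04, -0.05, -0.02 and 0.07 for all named genes.

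The genes for mitochondrial ribosomal proteins, which translate the mitochondrial subunits, had a median change of -0.28 with shS100A10_5 (74 genes, 58 negative) and -0.02 with shS100A10_1. Of the 74, 5 fell past the adjusted threshold in limma with shS100A10_5, beside 3.18% of all probe sets in either direction, and 20 were lower at an unadjusted p under 0.05 (27.0%, beside 10.3%). The 42 cytosolic ribosomal protein genes had -0.25 with shS100A10_5 (40 negative) and 0.00 with shS100A10_1. Of the 42, 8 had an unadjusted p under 0.05 and a lower value, beside 10.3% of all probe sets, and 0 passed the adjusted threshold. In replicates 1 and 2 of shS100A10_5 the median was -0.12 and -0.40 for the mitochondrial set and -0.11 and -0.40 for the cytosolic one, relative to the shNCT mean. Over the subunits of the complexes the same 2 arrays had medians of -0.14 and -0.50. The median change of the subunits was -0.36 with shS100A10_5 and -0.05 with shS100A10_1, and no difference between the sets was tested.

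Other genes of the pathway were read from lists drawn up by role. None of the 13 subunits encoded in mitochondrial DNA was analysed here. Of the 7 carriers and respiratory subunits outside the name rule, ETFB, which passes electrons from fatty acid oxidation to quinone, fell with shS100A10_5. It had 260 and 203 with shS100A10_5, 598 and 523 with shS100A10_1, and 492 and 576 with shNCT. The shS100A10_5 arrays were below the other 4, and the change was -1.21 (2.32-fold lower; limma, adjusted p = 0.0142). CYC1, cytochrome c1 of complex III, had a change of -0.84 (limma, adjusted p = 0.0614). For ETFB, leaving out shS100A10_5 replicate 2 gave an adjusted p of 0.13, and leaving out shNCT replicate 1 or 2 gave 0.0676 or 0.135.

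Of 33 measured assembly factors outside the name rule, 2 passed with shS100A10_5 (beside 3.18% of all probe sets) and 1 with shS100A10_1 (beside 0.189%). The median change of the 33 was -0.11 with shS100A10_5 and 0.01 with shS100A10_1, and the shS100A10_5 arrays had medians of -0.03 and -0.28. With shS100A10_5, 21 of the 33 had negative changes and 12 positive ones. At an unadjusted p under 0.05, 7 (21.2%, beside 10.3% of all probe sets) were lower and 4 (12.1%, beside 10.7%) were higher. COA3, which acts on complex IV, fell to 2889 and 1812 with shS100A10_5, against 4720 and 4943 with shNCT (-1.08; limma, adjusted p = 0.0371). TMEM242, which acts on ATP synthase assembly, rose to 690 and 564 with shS100A10_5, against 316 and 338 with shNCT (0.93; limma, adjusted p = 0.0296). NUBPL, which helps place iron-sulphur centres in complex I, fell to 71.7 and 60.6 with shS100A10_1, against 165 and 148 with shNCT (-1.25; limma, adjusted p = 0.0224). With shS100A10_5 it had 215 and 211, a change of 0.45 against shNCT, and the 2 hairpins differed by 1.69 (limma, adjusted p = 0.00332; 0.0737 without shS100A10_5 replicate 2). Leaving out shS100A10_5 replicate 2 gave an adjusted p of 0.186 for COA3 and 0.102 for TMEM242, and leaving out its replicate 1 gave 0.0506 for TMEM242. Without shNCT replicate 1 or 2 the values were 0.142 or 0.208 for COA3, 0.149 or 0.157 for TMEM242 and 0.246 or 0.163 for NUBPL with shS100A10_1. The call of NUBPL with shS100A10_1 was also lost without any 1 of the 4 hairpin arrays (adjusted p from 0.0706 to 0.152).

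Among 14 measured regulators of mitochondrial gene expression the median change was 0.00 with shS100A10_5. PPARGC1A, a coactivator that raises mitochondrial biogenesis, had 431 and 535 with shS100A10_5, 207 and 206 with shS100A10_1, and 231 and 188 with shNCT. It rose with shS100A10_5 by 1.20 on the log2 scale (2.31-fold; limma, adjusted p = 0.0135), and the shS100A10_5 arrays were above the other 4. In the same cells the subunit genes had the lower median given above. TFB2M, a factor of mitochondrial transcription, had a change of 0.63 that did not pass (limma, adjusted p = 0.0823). For PPARGC1A, leaving out shS100A10_5 replicate 2 gave an adjusted p of 0.13, and leaving out shNCT replicate 1 or 2 gave 0.0604 or 0.135.

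The citric acid cycle genes (16 measured) had a median change of -0.20 with shS100A10_5 and 0.03 with shS100A10_1, and 0 passed in limma. Of these, IDH2 had 431 and 299 with shS100A10_5, against 575 and 531 with shNCT, a change of -0.62 (limma, adjusted p = 0.117). Over the citric acid cycle genes, the median relative to the shNCT mean was -0.25 in replicate 1 and -0.095 in replicate 2 of shS100A10_5. Genes for mitochondrial content such as carriers and membrane proteins (19 measured) had -0.12 and 0.00, and 0 passed. Their median relative to the shNCT mean was -0.0035 in replicate 1 and -0.23 in replicate 2 of shS100A10_5, so the value rested on replicate 2. SLC25A5, the adenine nucleotide carrier, had a change of -0.41 with shS100A10_5 (limma, adjusted p = 0.22), with 31738 and 25512 against 38178 and 37571. None of the mesenchymal, luminal, leukocyte or endothelial marker genes passed in any comparison, with mesenchymal medians of 0.03 for shS100A10_5 and 0.07 for shS100A10_1.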

How the data were processed

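Total RNA was labelled with biotin for whole-transcript arrays, per the labels' protocols. The authors deposited a linear, normalized intensity for each probe set on each array, made with Transcriptome Analysis Console per the submitters' processing notes. The software version, background correction and normalization were not given in the sources used here. Each deposited value, taken to log2, ended at 5 decimal places (largest deviation 7.13e-10). No detection call, scan date or batch was given, so neither background nor batch could be tested.

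Symbols came from the platform annotation (15674 probe sets with 1 symbol, 0 with several, 1291 with none). Gene span and chromosome came from the RefSeq table of GRCh38.p14, which matched all 102 members. Samples were grouped by title. On log2 values, limma 3.58.1 (R 4.3.3; lmFit, eBayes) estimated 3 group means from the 6 arrays together, with 3 residual degrees of freedom, 7.16 prior ones and a prior SD of 0.194. Benjamini-Hochberg adjustment covered 16965 probe sets, with a threshold of 0.05. Standard errors are those of the fit.

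Members, roles and lists were chosen with earlier results of these data known, so counts and medians describe them and no set test was made. Values were printed for the targeted gene, members past the threshold, the members with the smallest p in each class and the largest changes, the isoform sets and core subunits, and list members past the threshold or with the smallest p. Members named in counts or paired with a printed promoter outside these were chosen after their values were seen. The replicate numbers in the titles were not taken as pairs, because the labels do not say that they mark a shared culture or day. Differences between replicates 1 and 2 correlated by -0.02 (shS100A10_1 and shNCT), -0.03 (shS100A10_5 and shNCT) and 0.19 (the 2 hairpins) over all probe sets. Over the members they correlated by -0.30, -0.44 and 0.40, and these values do not settle whether the numbers pair the arrays. Alternatives were other normalizations, filters, variance models, thresholds, a replicate block and leaving out each array. The fitting code was tested on simulated data.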

Additional observations from a re-analysis of the deposited data

Results flagged for a closer look

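In 4 results the 2 hairpins differed. For shS100A10_5 minus shS100A10_1, the log2 difference was 0.84 for COX20 and -0.80 for NDUFV1, each past the adjusted threshold in limma. For complex II, the median over genes of the shS100A10_5 minus shS100A10_1 log2 difference was -0.49 for the subunits and -0.38 for the assembly factors. Both sets were flagged because each shS100A10_5 array had a median below the shNCT mean and each shS100A10_1 array a median above it. That pattern is the rule of the flag and no further support. For the subunits the shNCT arrays lay at -0.059 and 0.059, with both shS100A10_1 arrays above them at 0.18. For the assembly factors the shNCT arrays lay at -0.10 and 0.10, with shS100A10_1 replicate 2 between them at 0.077. These differences were not tested.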

How the results depend on the processing

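The depth of an array has no count, so precision rests on 2 arrays a group, and dim probe sets could not be called absent. No member past the threshold turned its sign under a setting run. Calls at an adjusted p under 0.05 depended on the setting, and the cause was not tested. For the alternatives, the share of all probe sets called was counted only at an unadjusted p under 0.05, as given above. The other member counts, also those with an array left out, have no such share beside them. With shS100A10_1 against shNCT, 1 member was called with an intensity trend in the variance model and 6 at an unadjusted p under 0.05 (0 as reported). With shS100A10_5 against shNCT (2 as reported), the count was 0 with array weights, median centring or quantile normalization, 1 with robust variances, gene span removed (a member not among the 2) or cyclic loess (added after seeing the data), 9 without dim probe sets, 14 at an adjusted p under 0.1, 23 with the intensity trend and 37 at an unadjusted p under 0.05. Between the hairpins (2 as reported), it was 0 with array weights or only the 2 groups, 1 with cyclic loess, centring, quantile or span removed, 5 without dim probe sets, 7 at an adjusted p under 0.1, 13 with the intensity trend and 27 at an unadjusted p under 0.05. With the replicate block, 4 members were called with shS100A10_5 against shNCT, where the numbers are not shown to pair the arrays. Without dim probe sets the complex II assembly medians were 0.31 with shS100A10_1 and -0.19 with shS100A10_5, and with span removed the complex II subunit medians were -0.44 against shNCT and -0.55 between the hairpins.

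Leaving out each array in turn, calls ranged from 0 to 15 for shS100A10_5 against shNCT and from 0 to 8 between the hairpins. For shS100A10_5 against shNCT the medians ranged from -0.33 to -0.090 over all members, from -0.58 to -0.11 for complex I subunits, -0.44 to -0.27 for II, -0.46 to -0.18 for III, -0.59 to -0.092 for IV and -0.46 to -0.14 for V. Between the hairpins they ranged from -0.34 to -0.044 over all members, -0.45 to -0.036 for I, -0.55 to -0.43 for II, -0.40 to -0.093 for IV and -0.39 to -0.074 for V, and for assembly factors from -0.14 to 0.073 for I, -0.29 to 0.13 for III and 0.0064 to 0.22 for IV. For assembly factors with shS100A10_5 against shNCT they ranged from -0.023 to 0.13 for I and -0.14 to 0.036 for III. With shS100A10_1 against shNCT they ranged from -0.063 to 0.038 over all members, -0.15 to 0.039 for complex I subunits, 0.12 to 0.22 for II, -0.19 to 0.050 for III and -0.20 to -0.029 for IV, and for assembly factors from 0.068 to 0.18 for II, -0.014 to 0.14 for III and -0.15 to 0.14 for IV. Averaging several probe sets of a gene was not run, since each member had 1.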

Other observations

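Members on chromosome 19, a grouping chosen after the values were seen, had a median log2 change of -0.59 with shS100A10_5 against shNCT. All 11 were negative and 8 were lower at an unadjusted p under 0.05 (72.7%), beside 15.3% of all named genes on chromosome 19 and 10.0% of those on other chromosomes. On chromosome 19, 9.25% of named genes were higher at that p, and 42 fell and 14 rose past the adjusted threshold in limma. The 11 members were NDUFA7, NDUFA11, NDUFA13, NDUFB7, NDUFS7, UQCR11, COX6B1, COX6B2, COX7A1, ATP5F1D and SDHAF1. Relative to the shNCT mean their medians were -0.40 and -0.84 in the shS100A10_5 arrays and 0.0038 and -0.28 in the shS100A10_1 arrays. All 11 were below that mean in shS100A10_1 replicate 2. The controls also differed, with 10 of the 11 below it in shNCT replicate 1 and 1 in replicate 2. With shS100A10_1 their median change was -0.12. The 91 members on other chromosomes had a median of -0.18 with shS100A10_5. Over all named genes the medians were -0.01 for the 1146 on chromosome 19 and 0.03 for the 14528 on other chromosomes. No test was made.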
